A study of Mus musculus with 24 samples.

Results

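Colony-stimulating factors are secreted proteins that control the survival, growth and activation of myeloid cells. The 7 genes described here are 4 ligands, *Csf1*, *Csf2*, *Csf3* and *Il34*, and 3 receptor chains, *Csf2ra*, *Csf2rb* and *Csf3r*. They were chosen by gene symbol and are 7 of the 24411 genes measured. CSF-1 and IL-34 bind a shared receptor tyrosine kinase on which microglia depend for survival. GM-CSF (the product of *Csf2*) and G-CSF (*Csf3*) act instead through cytokine receptors that have no kinase domain of their own and signal through JAK kinases and STAT factors. In inflammation these ligands are produced by several cell types, and in the brain their receptors are best known from microglia and other myeloid cells.

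RNA sequencing measured cultured mouse astrocytes and microglia, wild-type (WT) or SOD1G93A, in 21 libraries analysed here, 3 in each of 7 conditions. SOD1G93A mice carry a human *SOD1* transgene with the G93A mutation of familial amyotrophic lateral sclerosis, driven by the human *SOD1* promoter and so not limited to glia. Astrocytes came from forebrain at postnatal day 5, were panned with antibody to HepaCAM after cells binding CD45 antibody, the lectin BSL I or O4 antibody had been removed, and were kept without serum. Microglia came from perfused whole brain at postnatal days 7 to 10, were selected with magnetic beads for Cd11b, and were kept in serum-free medium that contained TGF-β2 and murine IL-34 at 100 ng/mL, so that a protein of the family was present in every microglial culture. Quiescent cells received saline vehicle. Activated astrocytes of both genotypes received C1q (400 ng/mL) together with TNFα (30 ng/mL) and IL-1α (3 ng/mL), the factors by which activated microglia are known to induce a reactive state, and microglia of both genotypes received lipopolysaccharide (LPS) at 50 ng/mL. Quiescent SOD1G93A microglia, 3 samples of the series, were not analysed here, so the effect of LPS could be measured in WT microglia only. Libraries held 2016139 to 11570122 reads, with a median of 5098168, so that 3 reads, the number a count of 0 allows, correspond to 0.259 to 1.49 reads in 1000000. Such limits and the counting intervals below cover counting error only. Whether the replicates of a condition came from separate animals was not known here, as the authors' supplementary list of replicates was not read, so the p values measure only the spread between these samples, which may be technical. Libraries of 1 condition differed by 1.48 to 20.3 times counting noise (chi-square per degree of freedom over all genes). SOD1G93A microglia after LPS, replicate 3, stood apart from replicates 1 (15.7) and 2 (20.3), and WT microglia after LPS, replicate 1, from replicates 2 (14.0) and 3 (12.8). Quiescent WT astrocyte replicate 3 (8.97 and 6.50) and quiescent SOD1G93A astrocyte replicate 1 (6.47 and 9.87) also stood apart from the other 2 of their groups. They bear on *Csf3r*, whose values without them are given for the comparisons of quiescent cells. Without the WT microglial library the same 4 members were called after LPS.

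Levels are given as reads per 1000000 reads of the library (RPM), which lets astrocytes and microglia be set side by side, and fold changes as log2 ratios of the normalized read counts plus 1. Adding 1 understates the fold change of a gene with few reads. A gene was called at an adjusted p under 0.001 (limma, Benjamini-Hochberg over all genes tested) and more than a 2-fold change, and was tested only where its normalized counts averaged at least 10 over the libraries compared. Counts of genes with an unadjusted p under 0.05 are given without the share of all genes at that limit. They therefore do not set a group of genes apart from the rest.

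*Csf1* (chr3:107741048-107760469, minus strand, GRCm38) encodes CSF-1, the macrophage growth factor. In quiescent WT astrocytes it stood at 49.1, 56.6 and 69.1 RPM, and in quiescent SOD1G93A astrocytes at 55.8, 59.0 and 61.7. Activated WT astrocytes had 388, 346 and 352 RPM and activated SOD1G93A astrocytes 392, 359 and 379. Every activated astrocyte library was thus far above every quiescent one, and the genotypes overlapped in both states. Quiescent WT microglia had 26.5, 25.9 and 25.4 RPM, WT microglia after LPS 60.9, 68.3 and 75.3, and SOD1G93A microglia after LPS 60.3, 65.7 and 44.5. In the order of its levels, activated astrocytes of both genotypes came first, then a middle band in which LPS-treated microglia and quiescent astrocytes overlapped, then quiescent microglia below all other groups. On activation *Csf1* rose in WT astrocytes by a log2 fold change of 2.67 (standard error 0.130, 95% interval 2.38 to 2.96, adjusted p = 8.18e-08), or 6.36-fold. After LPS it rose in WT microglia by a log2 fold change of 1.60 (standard error 0.112, interval 1.35 to 1.85, adjusted p = 6.54e-07), or 3.03-fold.

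*Il34* (chr8:110741829-110805924, minus strand) encodes the other ligand of the same receptor, a protein unrelated to CSF-1 in sequence. Quiescent WT astrocytes had 2.48, 1.92 and 2.48 RPM, from 5, 7 and 23 reads, and quiescent SOD1G93A astrocytes 3.67, 2.48 and 3.64. Activated WT astrocytes had 41.0, 36.9 and 30.8 RPM and activated SOD1G93A astrocytes 42.2, 50.4 and 34.2. As for *Csf1*, the states were far apart and the genotypes overlapped. Microglial libraries held 1 to 8 reads of *Il34*, or 0.0864 to 0.985 RPM, below every astrocyte library and with the 3 microglial groups overlapping. The gene was therefore not tested in any comparison that includes microglia. In WT astrocytes the rise on activation was a log2 fold change of 3.89 (standard error 0.196, interval 3.45 to 4.32, adjusted p = 1.04e-07), or 14.8-fold. Exons of *Il34* overlap those of the antisense genes *Gm15894* and *Gm15895*, whose roles are not known, and the libraries were strand-specific. The strand setting of the counting was not known here, as the options of the authors' pipeline were not read, so reads of these genes and of *Il34* could not be told apart.

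*Csf2* (chr11:54247271-54249667, minus strand) encodes GM-CSF, a cytokine that activates macrophages and granulocytes. It was at the limit of detection in quiescent cells, with 2, 1 and 0 reads in WT astrocytes, 5, 3 and 0 in SOD1G93A astrocytes and 2 in each library of WT microglia. Activated WT astrocytes had 10.1, 8.27 and 6.44 RPM, from 51, 56 and 37 reads, and activated SOD1G93A astrocytes 6.99, 5.60 and 6.56. LPS-treated WT microglia had 29.3, 25.7 and 23.7 RPM and LPS-treated SOD1G93A microglia 19.9, 23.9 and 18.8. LPS-treated microglia were thus highest, activated astrocytes next, and the 3 quiescent groups lowest and overlapping, with the genotypes overlapping at each step. In WT microglia the fitted change after LPS was a log2 fold change of 5.75 (standard error 0.346, interval 4.98 to 6.52, adjusted p = 2.01e-07). Counted directly, 480 reads against 6 gave a ratio of 102 after correction for depth, with a 95% exact interval of 46.7 to 280.4. In WT astrocytes the fitted log2 fold change on activation was 4.11 (standard error 0.584, interval 2.82 to 5.40, adjusted p = 0.000205), and 144 reads against 3 gave a ratio of 40.9, interval 13.7 to 200.6. This call depended on single libraries. The adjusted p was 0.00153 without WT quiescent replicate 2, and 0.00332, 0.00175 and 0.00210 without WT activated replicates 1, 2 and 3, so that *Csf2* was then not called, at log2 fold changes of 3.96 to 4.27. Without WT quiescent replicate 1 its log2 fold change was 4.74 and without WT quiescent replicate 3 it was 3.49, and over all these omissions the adjusted p ran from 3.08e-06 to 0.00332. Exons of *Csf2* overlap those of the antisense gene *Gm12223*, of unknown role, whose reads could not be told apart either.

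*Csf3* (chr11:98701263-98703629, plus strand) encodes G-CSF, the growth factor of neutrophil precursors. LPS-treated WT microglia had 44.6, 41.8 and 41.3 RPM, from 362, 213 and 193 reads, and LPS-treated SOD1G93A microglia 35.5, 30.3 and 22.0. Elsewhere the gene was nearly unread, with 2, 1 and 0 reads in quiescent WT microglia and 0 to 6 reads in each of the 12 astrocyte libraries. *Csf3* was thus a transcript of LPS-treated microglia in these cultures, with the 2 LPS groups apart from each other and from all others. Its log2 fold change in WT microglia after LPS was 7.14 (standard error 0.373, interval 6.31 to 7.97, adjusted p = 6.68e-08), the largest of the 6 members tested there, and 768 reads against 3 gave a ratio of 328 with a 95% exact interval of 112 to 1592. In astrocytes it was too low to be tested. Activated WT astrocytes held 14 reads against 5 in quiescent ones, a ratio of 2.39 with an interval of 0.812 to 8.46, so that a change was not detectable at this depth.

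**Figure D1:**
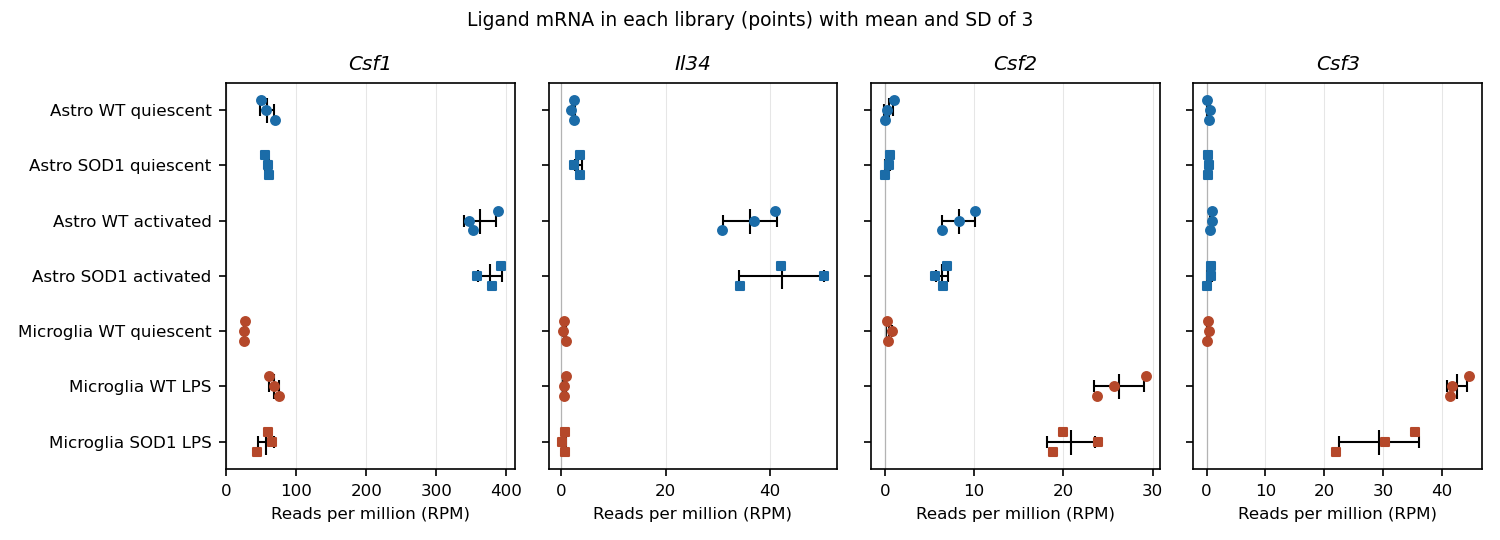
Level of each ligand gene in every library, in RPM, by condition. Circles are WT and squares SOD1G93A libraries, blue for astrocytes and red for microglia, and bars give the mean and SD of 3 libraries, and *Csf1* and *Il34* are highest in activated astrocytes, *Csf2* and *Csf3* in LPS-treated microglia.

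Set side by side per length of exon, the ligands ranked differently in the 2 activated cell types. In activated WT astrocytes *Csf1* reached 68.6 ± 4.29 RPM per kilobase (SD, n = 3), *Il34* 18.5 ± 2.63 and *Csf2* 10.3 ± 2.29, while *Csf3* stood at 0.566 ± 0.174. In LPS-treated WT microglia *Csf2* reached 32.8 ± 3.52, *Csf3* 30.1 ± 1.25 and *Csf1* 12.9 ± 1.36, while *Il34* stood at 0.341 ± 0.146. *Csf1* was also the ligand with the highest level per length in quiescent cells of both types, at 11.04 ± 1.91 in WT astrocytes and 4.91 ± 0.107 in WT microglia. The next ligand in these quiescent WT cells was *Il34* in astrocytes, at 1.17 ± 0.164.

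*Csf2ra* (chr19:61223957-61228429, minus strand) encodes the α chain of the GM-CSF receptor, which binds the ligand. Quiescent WT microglia had 136, 144 and 133 RPM, WT microglia after LPS 205, 165 and 179.9, and SOD1G93A microglia after LPS 187, 185 and 216. Quiescent WT astrocytes had 11.9, 9.07 and 10.5 RPM, quiescent SOD1G93A astrocytes 11.5, 13.7 and 17.9, activated WT astrocytes 16.6, 15.1 and 13.9, and activated SOD1G93A astrocytes 12.9, 11.96 and 14.0. Every microglial library was above every astrocyte library, and both LPS groups, which overlapped, lay above the quiescent microglia. Among astrocytes the order of the means was activated WT, quiescent SOD1G93A, activated SOD1G93A and quiescent WT, and of these neighbours the last pair did not overlap, by a narrow margin. The change after LPS was a log2 fold change of 0.62 (standard error 0.0920, interval 0.42 to 0.83, adjusted p = 0.00020), or 1.54-fold, without overlap but under the 2-fold limit. In WT astrocytes the activated libraries also lay above the quiescent ones, with a log2 fold change of 0.56 (interval 0.19 to 0.93, adjusted p = 0.0221) that was not called.

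*Csf2rb* (chr15:78325752-78353847, plus strand) encodes the signalling β chain that the receptors for GM-CSF, IL-3 and IL-5 share. Quiescent WT microglia had 271, 267 and 274 RPM, WT microglia after LPS 783, 988 and 898, and SOD1G93A microglia after LPS 813, 801 and 735. The LPS groups overlapped each other and lay far above quiescent microglia. The 12 astrocyte libraries ranged from 5.91 to 15.3 RPM, with the 4 astrocyte groups overlapping. *Csf2rb* was the receptor chain that was called after LPS, with a log2 fold change of 1.93 (standard error 0.102, interval 1.70 to 2.15, adjusted p = 7.47e-08), or 3.80-fold. Mice have a second β chain gene close to it, *Csf2rb2*, whose product serves the IL-3 receptor alone. The sequences of these paralogs are so alike that reads can be split between them, and their separate levels are uncertain. As counted, *Csf2rb2* went from 489.6 ± 7.44 to 764 ± 82.7 RPM in WT microglia after LPS (SD, n = 3). Its log2 fold change was 0.85 (interval 0.63 to 1.07, adjusted p = 3.48e-05), in the same direction as *Csf2rb* and not called.

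*Csf3r* (chr4:126024550-126044440, plus strand) encodes the G-CSF receptor, which signals as a dimer of itself. Quiescent WT microglia had 77.5, 93.7 and 78.2 RPM, WT microglia after LPS 106, 110.04 and 111, and SOD1G93A microglia after LPS 94.3, 94.4 and 124. All LPS-treated libraries were above all quiescent microglia, by a small margin. In WT cells the log2 fold change was 0.61 (standard error 0.106, interval 0.37 to 0.84, adjusted p = 0.000632), or 1.53-fold, which was not called. Astrocyte libraries were lower by far and uneven. Quiescent WT astrocytes had 0.496, 2.20 and 4.43 RPM, from 1, 8 and 41 reads, and quiescent SOD1G93A astrocytes 6.72, 5.65 and 7.29. Activated WT astrocytes had 2.38, 4.88 and 2.09 and activated SOD1G93A astrocytes 4.30, 1.02 and 1.40. Quiescent SOD1G93A astrocytes thus stood above the other 3 astrocyte groups, which overlapped.

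**Figure D2:**
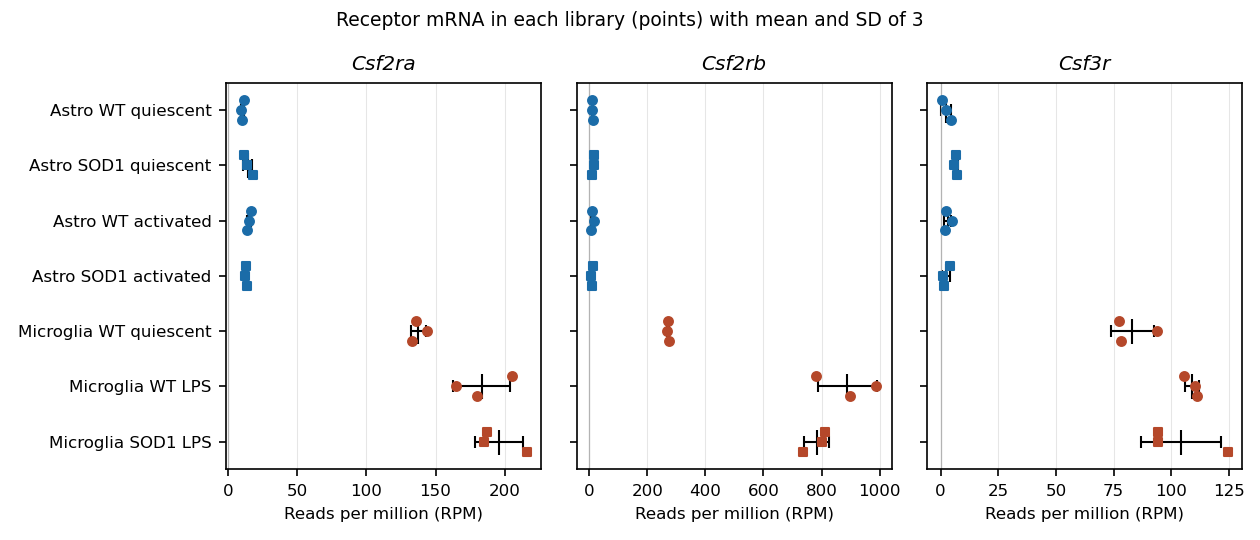
Level of each receptor gene in every library, in RPM, by condition. Circles are WT and squares SOD1G93A libraries, blue for astrocytes and red for microglia, bars give the mean and SD of 3 libraries, and every microglial library lies above every astrocyte library.

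Per length of exon, quiescent WT microglia held 47.9 ± 1.93 RPM per kilobase of *Csf2ra*, 37.2 ± 0.495 of *Csf2rb* and 23.0 ± 2.54 of *Csf3r* (SD, n = 3). After LPS the order of the first 2 was the other way round, with 122 ± 14.1 for *Csf2rb*, 63.9 ± 7.15 for *Csf2ra* and 30.2 ± 0.795 for *Csf3r*. In LPS-treated WT microglia the levels per length of *Csf3r* and of its ligand gene *Csf3* (30.1 ± 1.25) differed by less than their spread. In LPS-treated SOD1G93A microglia *Csf3r* stood at 28.9 ± 4.81 and *Csf3* lower, at 20.7 ± 4.81.

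Between cell types in the quiescent WT state, 4 members had enough reads to be tested and 3 were called, all higher in microglia (47.3% of all genes tested were called, 2716 of 5702 of them higher). The astrocyte and microglial libraries come from different tables and were put on 1 scale by median-of-ratios size factors. The log2 fold change of microglia against astrocytes was 4.27 for *Csf2ra* (standard error 0.126, interval 3.99 to 4.55, adjusted p = 4.62e-10) and 5.26 for *Csf2rb* (standard error 0.170, interval 4.88 to 5.64, adjusted p = 7.83e-10). For *Csf3r* it was 5.91 (standard error 0.528, interval 4.74 to 7.09, adjusted p = 1.79e-06), and it was 5.17 without WT quiescent astrocyte replicate 1 and 6.54 without replicate 3. The receptors were thus 19.3-fold, 38.3-fold and 60.3-fold higher in microglia in the same order. *Csf1* was lower in microglia, with a log2 fold change of −0.57 (interval −0.91 to −0.23, adjusted p = 0.00533), without overlap and not called.

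The low receptor levels in astrocytes were set beside the microglia that the astrocyte cultures may contain. The summed level of 15 microglia markers, all 15 present in the tables, was 338, 405 and 481 RPM in quiescent WT astrocytes and 551, 539 and 419.8 in quiescent SOD1G93A astrocytes. It was 367, 487 and 348 in activated WT astrocytes and 422, 310.2 and 339.98 in activated SOD1G93A astrocytes, against 11136, 11749 and 10875 in quiescent WT microglia. Astrocyte libraries thus held 2.76% to 4.90% of the microglial level of these markers. None of the 15 was at 0 in every library of an astrocyte group. The most abundant there was *Sall1*, a transcription factor of microglia, which at 181 RPM in quiescent WT astrocytes was higher than in quiescent WT microglia (122 RPM). Without *Sall1*, left out after its values were seen, the range was 1.43% to 3.41%. On the same measure *Csf2rb* stood at 2.19% to 5.66% of its level in quiescent WT microglia, *Csf2ra* at 6.59% to 13.02% and *Csf3r* at 0.597% to 8.77%. Against all 15 markers *Csf2ra* stood higher in each of the 12 astrocyte libraries, and *Csf2rb* higher in 7 and lower in 5. Against the markers without *Sall1*, both stood higher in each of the 12. In quiescent SOD1G93A astrocytes *Csf3r* stood at 8.08%, 6.80% and 8.77%, while the markers without *Sall1* stood at 3.27%, 3.41% and 2.28%. *Csf3r* was below the markers without *Sall1* in quiescent WT replicate 1 (0.597% against 1.43%) and activated SOD1G93A replicate 2 (1.22% against 1.55%). Against all 15 markers it was higher in some astrocyte libraries and lower in others. The part of microglia in the astrocyte values of these receptors was not tested, and fewer cells of a type cannot be told apart from less RNA per cell. After LPS the summed level of the microglia markers was 4182, 3849 and 3802 RPM in WT and 4229, 4150.2 and 5363 in SOD1G93A microglia, so that the sum fell. Of the 15 markers 10 were called lower and 0 higher, and the leukocyte phosphatase gene *Ptprc* went from 468 to 610.2 RPM in WT cells. The most abundant marker after LPS in WT cells was *Itgam*, which encodes the Cd11b used for selection, at 766 RPM.

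Other cell types were looked for in the same way, by the mean summed level of their markers. The 11 astrocyte markers summed to 5214 to 6373 RPM in the astrocyte groups and 181 to 214 in the microglial groups, with the glutamate transporter gene *Slc1a3* the most abundant in quiescent WT astrocytes at 2386. The sum hides a fall on activation, with a median log2 fold change of −0.80 in WT astrocytes (3 of 11 called lower, 8 with an unadjusted p under 0.05) and −0.26 in SOD1G93A astrocytes (2 called lower and 1 higher). The 9 markers of the oligodendrocyte lineage summed to 3004 and 3381 in quiescent WT and SOD1G93A astrocytes, 1116 and 1087 in activated ones, 1286 in quiescent microglia, and 128 and 199.6 after LPS in WT and SOD1G93A microglia. Their most abundant gene was the transcription factor gene *Olig1*, at 1799 in quiescent WT astrocytes, and in quiescent microglia the proteoglycan gene *Cspg4*, at 1229. The fall in microglia was that of *Cspg4*, to 65.6 in WT cells after LPS, while *Olig1* went from 15.3 to 14.4 there. The 8 endothelial markers summed to 8.93, 9.90 and 13.4 RPM in quiescent and 137, 149 and 154 in activated WT astrocytes, and in microglia their means were 43.9 to 72.6. They thus rose with activation in astrocytes, as *Csf1*, *Csf2* and *Il34* did. Most of that was the VEGF receptor gene *Flt1*, at 144 RPM. *Pecam1*, of an adhesion protein, went from 0.164 to 1.69 RPM in WT cells and *Emcn*, of a sialomucin, from 0 to 0.355, while *Cdh5*, of a cadherin, and *Cldn5*, of a tight junction protein, were at 0 in every activated astrocyte library. The 8 markers of pericytes and fibroblasts summed to 22.5 to 68.9, led by the smooth muscle actin gene *Acta2*. In activated WT astrocytes *Acta2* went from 56.7 to 25.4 RPM, while the matrix genes *Lum* and *Dcn* went from 0.439 to 21.5 and from 0.548 to 12.6. The 8 neuronal markers summed to 2.64 to 48.9, led in WT astrocytes by the tubulin gene *Tubb3*. In WT astrocytes they went from 32.7, 29.4 and 25.2 RPM to 46.9, 51.3 and 48.4 on activation, with a median log2 fold change of 1.02 (1 of 5 tested called higher, 3 with an unadjusted p under 0.05), against −0.17 in SOD1G93A astrocytes (1 of 5 called higher). The part of other cells, or of a change in the share of astrocytes, in the rise of the ligand genes was not tested. Of 10 neutrophil markers 9 were in the tables, and their means were 0.416 to 1.36 in astrocytes, 2.63 in quiescent microglia, and 68.0 and 49.2 after LPS in WT and SOD1G93A microglia. In the libraries of WT microglia after LPS they summed to 64.8, 63.2 and 75.9. Most of this was the collagenase gene *Mmp8*, at 63.6 RPM after LPS in WT cells. The calprotectin gene *S100a8* went from 0.486 to 2.03 RPM there, the cathelicidin gene *Camp* from 0.0328 to 1.65 and the myeloperoxidase gene *Mpo* from 0 to 0.618, while 3 of the 9, among them the elastase gene *Elane*, were at 0 in every library of that group and *S100a9*, the partner of *S100a8*, had at most 1 read. The 8 markers of T and NK cells summed to at most 0.864, led by the co-receptor gene *Cd4*. The 7 of monocytes and border macrophages summed to at most 0.749 in astrocytes, 7.82 in quiescent microglia, and 17.1 and 15.4 after LPS, led in WT cells by the chemokine receptor gene *Ccr2* at 7.39. The part of these cells in the microglial values of *Csf3* and *Csf3r* was not tested.

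One comparison asked what the activating factors do to WT astrocytes. Of the 6 members tested 3 were called, *Csf1*, *Il34* and *Csf2* (11.5% of all genes tested were called). Each of them rose, as did 740 of the 1424 genes called. Without any 1 of the 4 libraries named for *Csf2* above, 2 members were called. The receptors *Csf2rb* (log2 fold change −0.11, interval −0.80 to 0.57, adjusted p = 0.807) and *Csf3r* (0.67, interval −0.73 to 2.06, adjusted p = 0.448) had intervals that include 0. In SOD1G93A astrocytes, fitted together with the WT ones over 12 libraries, 3 of 6 members tested were again called and higher (13.3% of all genes tested were called, 827 of 1635 of them higher), and they were the same genes. There the log2 fold change was 2.76 for *Csf1* (standard error 0.111, interval 2.52 to 2.99, adjusted p = 3.32e-12), 3.69 for *Il34* (standard error 0.208, interval 3.25 to 4.13, adjusted p = 2.37e-10) and 3.87 for *Csf2* (standard error 0.574, interval 2.65 to 5.08, adjusted p = 2.81e-05). For *Csf2*, 62 reads against 8 gave a ratio of 16.7, interval 7.97 to 40.4. *Csf3r* moved the other way in SOD1G93A astrocytes, with a log2 fold change of −1.62 (interval −2.85 to −0.38, adjusted p = 0.0339), without overlap between states and not called. The microglia markers moved with it, with a median log2 fold change of −0.66 (7 of 13 tested with an unadjusted p under 0.05) in SOD1G93A astrocytes against 0.00 (0 of 13) in WT astrocytes, and the part of microglia in the fall of *Csf3r* was not tested.

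Whether the genotypes respond differently was tested as the interaction of genotype and activation over these 12 libraries. None of 6 members tested was called (limma, 0 called; 2 with an unadjusted p under 0.05; 0 by DESeq2 and 0 by edgeR). Of all 12269 genes tested limma called 0.00%, DESeq2 21 genes and edgeR 4. The difference in log2 fold change was 0.09 for *Csf1* (interval −0.24 to 0.42), −0.19 for *Il34* (interval −0.81 to 0.43) and −0.20 for *Csf2* (interval −1.92 to 1.51), so that for *Csf2* a sizeable difference was not detectable at this depth. It was −0.60 for *Csf2ra* (interval −1.12 to −0.08, adjusted p = 0.523, limma) and −2.27 for *Csf3r* (interval −4.02 to −0.52, adjusted p = 0.438, limma), the members with an unadjusted p under 0.05. Leaving out 1 library gave −2.90 to −1.52 for *Csf3r*. The median of the microglia markers was −0.65 (3 of 13 tested with an unadjusted p under 0.05). That of the neuronal markers was −1.21 (4 of 5) and that of the astrocyte markers 0.35 (5 of 11). The part of other cells in these differences was not tested, and it cannot be told apart from a response of astrocytes.

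LPS in WT microglia raised 4 of 6 members tested past the limits, *Csf1*, *Csf2*, *Csf3* and *Csf2rb* (20.8% of all genes tested were called, 1110 of 2263 of them higher). The other 2, *Csf2ra* and *Csf3r*, also rose, by less than 2-fold. All 6 members tested in microglia thus rose after LPS, with every LPS-treated WT library above every quiescent one. The share of all genes without such overlap is not given here, so this does not set the members apart from other genes.

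**Figure D3:**
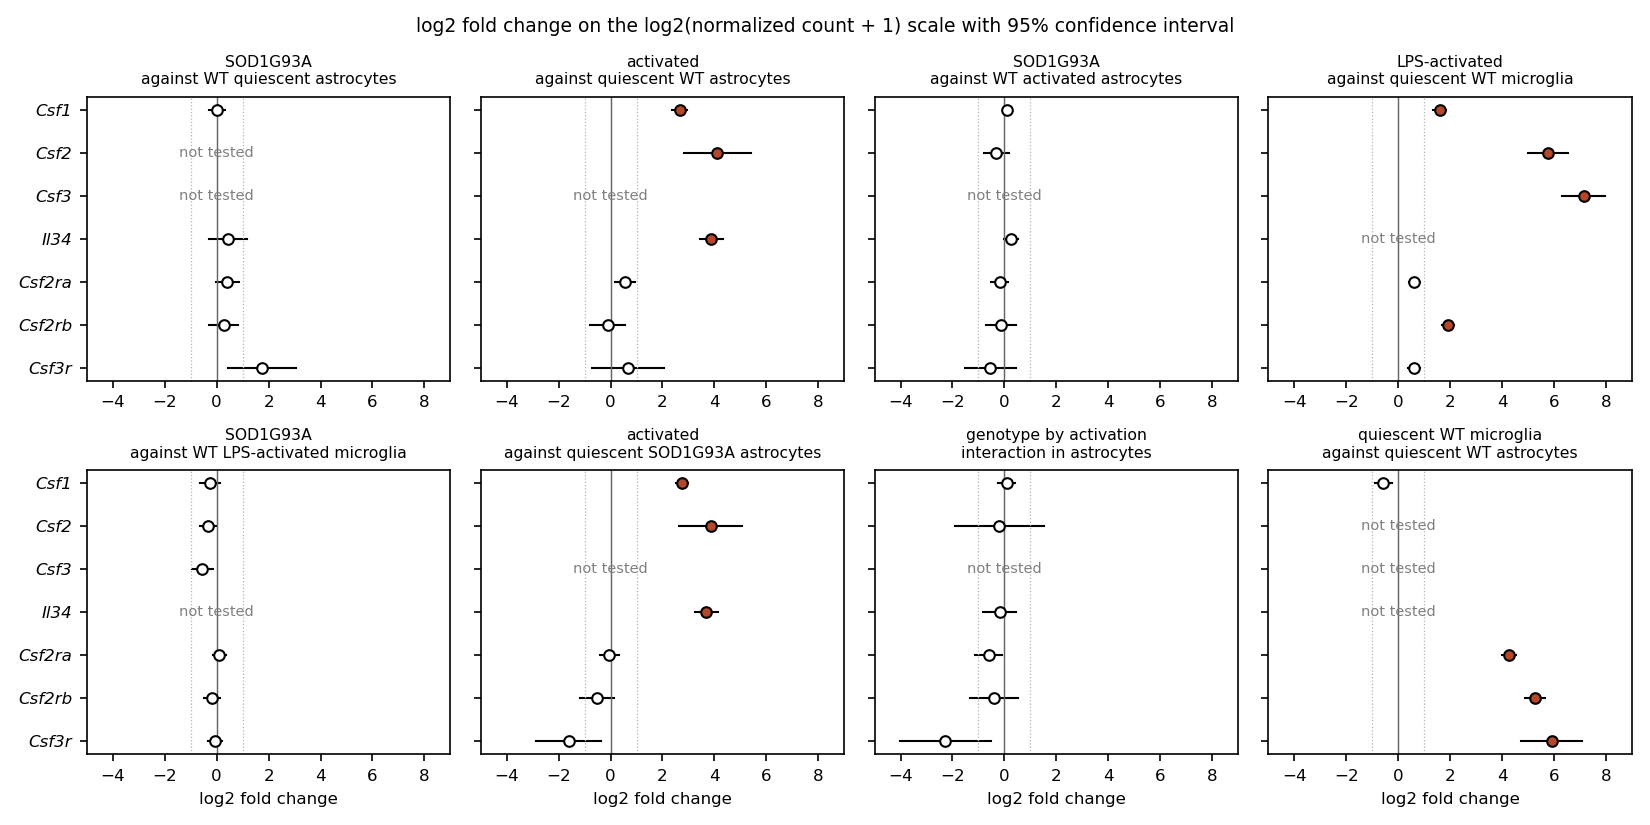
Log2 fold change of each member tested in each comparison, with lines for the 95% interval. Filled points passed both limits of the call, dotted lines mark a 2-fold change, and filled points appear only in the comparisons of activation and of cell type.

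The genotype comparisons asked whether glia with the disease mutation differ from WT glia in the same state. In quiescent astrocytes 0 of 5 members tested were called (limma; 1 with an unadjusted p under 0.05; 0 by DESeq2 and 0 by edgeR), with 0.00% of all genes called by limma and 7 genes by DESeq2. That 1 was *Csf3r*, at 3.34 times the WT value, with a log2 fold change of 1.74 (standard error 0.585, interval 0.44 to 3.04, adjusted p = 0.481, limma) and all 3 SOD1G93A libraries above all 3 WT libraries. Its lowest WT library, with 1 read, was also the shallowest of the study. Without it the log2 fold change was 0.98, and without WT quiescent replicate 3 it was 2.37, the ends of the range over single omissions. It was 1.71 without SOD1G93A quiescent replicate 1. The microglia markers were higher as well, with a median log2 fold change of 0.57 (5 of 13 tested with an unadjusted p under 0.05). In activated astrocytes 0 of 6 members tested were called (limma; 0 with an unadjusted p under 0.05; 0 by DESeq2 and 0 by edgeR), with 0.645% of all genes called. There *Csf1* differed by a log2 fold change of 0.10 (interval −0.03 to 0.23, adjusted p = 0.409), *Il34* by 0.25 (interval −0.02 to 0.52, adjusted p = 0.285) and *Csf2* by −0.31 (interval −0.78 to 0.17, adjusted p = 0.503). Of these intervals that of *Csf1* was the narrowest and that of *Csf2* the widest.

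In LPS-treated microglia 0 of 6 members tested were called between genotypes (limma; 2 with an unadjusted p under 0.05; 0 by DESeq2 and 0 by edgeR), with 0.00% of all genes called by limma and 2 genes by DESeq2. *Csf3* was lower in SOD1G93A microglia, with a log2 fold change of −0.56 (standard error 0.179, interval −0.97 to −0.15, adjusted p = 0.571, limma) and all 3 SOD1G93A libraries below all 3 WT libraries. *Csf2* had a log2 fold change of −0.33 (interval −0.65 to −0.00, adjusted p = 0.573, limma), with overlap. *Csf1* had −0.27 (interval −0.66 to 0.11, adjusted p = 0.615). For all 3 ligands the lowest library was SOD1G93A replicate 3, which stood apart from its group. Without it the log2 fold changes were −0.35 for *Csf3*, −0.24 for *Csf2* and −0.088 for *Csf1*. With all libraries, the monocyte and border macrophage markers had a median of −0.70 (2 of 3 tested with an unadjusted p under 0.05). The median of the microglia markers was 0.21 (3 of 15). The part of these cells in the ligand differences was not tested. For the receptors the log2 fold changes were 0.10 (*Csf2ra*), −0.17 (*Csf2rb*) and −0.07 (*Csf3r*), each with an interval that includes 0.

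Genes around these ligands and receptors were described as lists, by counts and medians beside the same over all genes tested. Medians over all genes were 0.01 in WT astrocyte activation, 0.00 in the LPS comparison, −0.00 in SOD1G93A astrocyte activation and −0.04 between cell types. The shares of all genes called were 11.5%, 20.8%, 13.3% and 47.3% in the same order. Of 7 other ligands, receptor chains and binding partners, 4 were tested. In WT astrocyte activation 1 was called, the phosphatase receptor gene *Ptprz1*, which encodes an IL-34 binding partner and was lower (log2 fold change −1.50; −1.34 in SOD1G93A astrocytes). After LPS 1 was called higher, the proteoglycan gene *Sdc1* (1.87), whose product also binds IL-34. Between cell types *Csf2rb2* (5.99) and the IL-3 receptor α chain gene *Il3ra* (4.24) were higher in microglia, and *Ptprz1* (−6.04) and *Sdc1* (−2.85) higher in astrocytes. The list had a median of 0.27 in WT astrocyte activation, 0.18 in SOD1G93A astrocyte activation, 0.79 after LPS and 0.69 between cell types. The 2 receptor chain genes here thus followed the 3 receptor members in being higher in microglia.

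All 19 kinases and adaptors of receptor signalling were tested. In WT astrocyte activation 4 were called higher and 0 lower, the lipid kinase gene *Pik3cd* (log2 fold change 5.87), the transcription factor genes *Stat5a* (3.99) and *Stat3* (1.50), and the adaptor gene *Shc1* (1.22). In SOD1G93A astrocytes 4 were called higher, among them *Pik3cd* (5.04), *Stat5a* (2.52) and *Stat3* (1.64), and 1 was called lower. Of the 19 kinases and adaptors, 4 were called higher after LPS and 3 lower. Among the 4 were *Jak2* (2.95), the gene of a kinase that the receptors of GM-CSF and G-CSF use, and the kinase gene *Syk* (2.63). Between cell types 15 were called higher in microglia and 0 lower, led by the adaptor gene *Tyrobp* (6.81), the kinase gene *Fes* (6.49) and the phospholipase gene *Plcg2* (6.07). The medians were 0.52, 0.29, 0.34 and 2.84 in the same order of comparisons. Between the genotypes of quiescent astrocytes limma called 0 of 52 genes tested over the 6 lists (9 with an unadjusted p under 0.05), and between those of LPS-treated microglia 0 of 56 (4 with an unadjusted p under 0.05). A gene of 2 lists counts in each, and DESeq2 and edgeR also called 0 in both comparisons.

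Inhibitors of receptor signalling (10 genes) had 1 called higher of 8 tested in activated WT astrocytes, the feedback inhibitor gene *Socs3* (log2 fold change 2.16), which was also the 1 called in SOD1G93A astrocytes (1.39). After LPS all 10 were tested, with 3 called higher, the feedback inhibitor genes *Cish* (5.95), *Socs3* (5.92) and *Socs1* (5.09), and 1 lower, the lipid phosphatase gene *Inpp5d* (−1.75). Between cell types 5 were called higher in microglia, led by *Inpp5d* (6.07), the tyrosine phosphatase gene *Ptpn6* (5.85) and the adaptor genes *Dok2* (4.50) and *Dok1* (3.27). The medians were 0.09 in WT and −0.16 in SOD1G93A astrocyte activation, 0.39 after LPS and 2.27 between cell types. Of 8 STAT5 target genes, activated astrocytes had 1 of 7 tested called higher, the survival gene *Bcl2l1* (1.15 in WT and 1.13 in SOD1G93A). After LPS 3 of 8 were called higher and 2 lower, led by *Cish*, the kinase gene *Pim1* (4.60), the cyclin gene *Ccnd1* (−3.83) and the cytokine gene *Osm* (3.38). Between cell types 4 were higher in microglia and 1 lower, led by *Osm* (5.21, and 4.39 and 5.81 without WT quiescent astrocyte replicates 1 and 3), *Bcl2l1* (3.12), *Pim1* (1.97) and the survival gene *Mcl1* (1.49). The medians of the targets were 0.17, 0.22, 0.60 and 1.49.

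The 8 myeloid transcription factors were all called higher in quiescent microglia than in astrocytes, among them *Irf8* (log2 fold change 6.53), *Spi1* (6.43) and *Runx1* (5.68), with a median of 5.62. In activated WT astrocytes 3 were called higher, *Runx1* (3.25), *Cebpb* (3.11), a factor of acute inflammation, and *Klf4* (2.16). In SOD1G93A astrocytes 4 were called higher, led by *Cebpb* (2.99), *Runx1* (2.84) and *Klf4* (1.96). After LPS *Cebpa* (−2.23), a factor of granulocyte and macrophage differentiation, was called lower and *Cebpb* (2.00) higher. The medians were 0.54 in WT and 0.78 in SOD1G93A astrocyte activation and 0.08 after LPS.

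Short-lived cytokine mRNAs often carry AU-rich elements, repeats of the pentamer ATTTA in the 3′ UTR that RNA-binding proteins recognise. In GENCODE M21 transcripts *Csf2* held 9 such pentamers in 317 bases, *Csf3* 6 in 669, *Csf1* 4 in 2111 and *Il34* 1 in 439, while the 3 receptor genes held 0. Over the 3′ UTRs of 20716 genes the median was 1, and 19.7% held 5 or more. The overlapping nonamer TTATTTATT occurred 4 times in *Csf2*, 0 times in *Csf3* and in 7.13% of all genes. The ligand genes with the largest rises after LPS, *Csf3* and *Csf2*, were the members with the densest pentamers. Between these 2 genes *Csf3* rose more and had fewer, at 8.97 per kilobase against 28.4 in *Csf2*. A relation of pentamers to the rises was not tested. The 30 bases with the most pentamers are shown for these 2 genes, as DNA, 5′ to 3′, with pentamers in capitals, at transcript positions 713 to 742 for *Csf2* and 768 to 797 for *Csf3*.
*Csf2*: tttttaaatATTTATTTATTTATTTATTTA
*Csf3*: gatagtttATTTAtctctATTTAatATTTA

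The 7 regulators of AU-rich mRNA were tested in each comparison. In activated WT astrocytes 2 were called higher, the RNase gene *Zc3h12a* (log2 fold change 4.17) and *Zfp36* (1.62), which encodes the decay factor tristetraprolin, and the same 2 in SOD1G93A astrocytes (2.93 and 1.30). After LPS *Zc3h12a* (4.74) and *Zfp36* (2.16) were called higher and *Zfp36l2* (−2.54), a relative of *Zfp36*, lower. Between cell types 3 were called higher in microglia, *Zfp36* (3.46), *Zc3h12a* (3.03) and *Zfp36l2* (2.30), and 1 lower, the related *Zfp36l1* (−1.03). *Zfp36l1* fell short of the 2-fold limit without WT quiescent astrocyte replicate 2 (−0.97) or microglial replicate 2 (−0.99), and *Zc3h12a* had an adjusted p of 0.00165 and 0.00140 without microglial replicates 1 and 3. The medians were −0.18 in WT and 0.07 in SOD1G93A astrocyte activation, 0.33 after LPS and 0.16 between cell types. *Zc3h12a* and *Zfp36* thus rose in the same cells as *Csf2*.

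Promoters, from 250 bases before to 50 after the start, were taken from a table made from RefSeq on GRCm38.p6, in which 4 of the 7 members were matched by symbol, *Csf1*, *Csf2*, *Csf2ra* and *Csf3r*, and *Csf3*, *Il34* and *Csf2rb* were not. They were searched on both strands for the NF-κB motif, TGANTCA (AP-1), GAGGAA (the core of sites for PU.1, the product of *Spi1*) and TATAAA. A match describes the letters and is not evidence of a site. The motifs occur in 8.46%, 7.81%, 28.3% and 13.6% of 32851 promoters in that order. *Csf1* held 1 NF-κB match, *Csf2ra* 2 adjoining GAGGAA, *Csf3r* 1 match of each of these 2 motifs, and *Csf2* none of the 4 motifs. The RefSeq start of *Csf2* lies upstream of the GENCODE one (chr11:54249667). Its window, chr11:54249850-54250149, ends before reaching the GENCODE start. The bases just before the GENCODE start were thus not searched, and the absence of matches says nothing about them. TGANTCA and TATAAA were in none of the 4 windows searched. The promoters of *Csf1*, induced in both cell types, and of *Csf2ra*, the receptor chain with the highest level per length among the members in quiescent microglia, are printed 5′ to 3′ on the minus strand, which is that of the genes. The *Csf1* promoter is chr3:107760420-107760719, with the NF-κB match, 154 bases before the start and on the opposite strand (chr3:107760614-107760623), in capitals. The *Csf2ra* promoter is chr19:61228369-61228668, with GAGGAA in capitals.
*Csf1*: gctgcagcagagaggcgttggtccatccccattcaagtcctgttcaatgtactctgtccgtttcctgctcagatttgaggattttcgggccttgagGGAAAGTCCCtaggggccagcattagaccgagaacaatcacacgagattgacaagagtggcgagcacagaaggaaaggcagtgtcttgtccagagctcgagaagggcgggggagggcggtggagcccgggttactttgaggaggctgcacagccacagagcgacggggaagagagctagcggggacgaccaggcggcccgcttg
*Csf2ra*: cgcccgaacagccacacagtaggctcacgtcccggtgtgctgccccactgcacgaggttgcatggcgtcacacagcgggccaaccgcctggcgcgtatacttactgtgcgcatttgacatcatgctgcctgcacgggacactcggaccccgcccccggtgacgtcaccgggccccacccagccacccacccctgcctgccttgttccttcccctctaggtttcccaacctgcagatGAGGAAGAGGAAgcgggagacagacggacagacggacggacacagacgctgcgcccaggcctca

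Genes whose levels moved most like each member across the 21 libraries were ranked by Pearson r among 12536 genes, as a description. The libraries fall into groups by cell type and state, which these values share. *Csf1* was most like the ceruloplasmin gene *Cp* (r = 0.990), *Fam43a* (0.981), of unknown role, and the IL-1 receptor chain gene *Il1rap* (0.980). For *Il34* the nearest were *Crispld2* (0.985), which encodes a secreted protein, *Rgs16* (0.985), a regulator of G protein signalling, and the phosphodiesterase gene *Pde1a* (0.983). *Csf2* was nearest to *Nfkbiz* (0.974), a regulator of NF-κB, the interferon-induced GTPase gene *Gbp5* (0.972) and the receptor kinase gene *Met* (0.971). For *Csf3* they were the adenosine receptor gene *Adora2a* (0.994), *Jak2* (0.992) and the chemokine gene *Ccl5* (0.992). *Csf2ra* was nearest to *Tatdn2* (0.993), a nuclease gene, *Sh3bgrl3* (0.993), of uncertain role, and *Pon3* (0.993), a lactonase gene. *Csf2rb* was nearest to the transporter gene *Slc15a3* (0.998), the GTPase gene *Rac2* (0.998) and the adaptor gene *Sla* (0.997), and *Csf3r* to the exchange factor gene *Vav1* (0.992), the inhibitory receptor gene *Lilrb4a* (0.988) and the IL-10 receptor gene *Il10ra* (0.988).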

How the data were processed

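RNA sequencing of cultured mouse astrocytes and microglia was used in 21 libraries, assigned to conditions by their labels. Per the submitters' notes, strand-specific libraries were aligned to mm10 with STAR 2.7.3a, counted with RSEM and compared with DESeq2 in R 3.6.1. The authors deposited 6 tables whose per-library signal is a normalized count, reads divided by a size factor. Their other columns (mean, log2 fold change, standard error, statistic, p and adjusted p) were not used. Reads were recovered from the smallest step of each column, with 100% of values whole within 0.01 read.

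Each comparison was fitted with limma 3.58.1 (intensity trend, R 4.3.3) on log2(normalized count + 1) for genes with a mean of at least 10. SOD1G93A activation, the interaction and the cell type comparison were fitted on recovered reads with median-of-ratios size factors. Read ratios have exact (Clopper-Pearson) 95% intervals. Gene lengths, positions and UTRs come from GENCODE M21. Alternatives were other pseudocounts, filters and scalings, DESeq2 1.42.0, edgeR 4.0.16, limma without trend, a looser limit, each library left out in turn, and a block for replicate number. All 7 members were named, of each list up to 4 called genes per comparison by size of change, for each member the 3 most similar genes, and of each marker list the most abundant gene. Members and lists were chosen with earlier results of these data known.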

Additional observations from a re-analysis of the deposited data

How the results depend on the processing

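Over the members' log2 fold changes, 793 of 820 values under other settings kept their direction and their side of the limits, 17 reversed, 5 came to pass a limit and 5 no longer did. Requiring at least 10 normalized counts in every library, which tests fewer genes, left 1 member called in WT astrocyte activation, 2 after LPS, 1 in SOD1G93A astrocyte activation and 2 between cell types. Leaving out 1 library gave 2 to 3 members called in WT astrocyte activation and the same count as with all libraries in every other comparison. Without a trend in limma the adjusted p of *Csf2* in WT astrocyte activation was 0.00177 (over settings other than leaving out a library, 3.17e-08 to 0.00177), and its log2 fold change ran from 2.73 to 5.26. At an adjusted p under 0.05 and any fold change, 4 members passed in WT and 4 in SOD1G93A astrocyte activation. There were 6 after LPS, 4 between cell types and 0 in each genotype comparison and the interaction. The share of all genes that pass this looser limit is not given here, so these counts do not set the members apart from other genes.

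The values that reversed were of changes not called. For *Csf1* between genotypes of quiescent astrocytes the log2 fold change was −0.039 with DESeq2, −0.058 with edgeR and −0.12 to 0.15 leaving out a library. For *Csf2ra* in SOD1G93A astrocyte activation it was 0.017 with quantile normalization and −0.17 to 0.11 leaving out a library. Leaving out a library gave −0.10 to 1.30 for *Csf3r* and −0.45 to 0.20 for *Csf2rb* in WT astrocyte activation, −0.44 to 0.21 for *Csf2rb* between genotypes of activated astrocytes, and −0.057 to 0.22 for *Csf1* and −0.82 to 0.40 for *Csf2* in the interaction. The cause was not tested.

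For the pathway lists these alternatives were added after seeing the data. Without a trend in limma *Socs3* in WT astrocyte activation (adjusted p = 0.00117) and *Zc3h12a* between cell types (0.00177) were not called, and with quantile normalization *Mcl1* between cell types was not (log2 fold change 0.91). Scaling levels by TMM moved 27 of 49 mean levels by more than 1 SD, by 0.805 to 1.37 times. Depth limits the values of genes with few reads, such as *Csf2*, *Csf3*, *Il34* and *Csf3r* in quiescent astrocytes.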
